A study of Mus musculus with 12 samples.

Results

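The 10 genes described here encode the RhoA-ROCK-LIM kinase-cofilin pathway: the small GTPases Rhoa, Rhob and Rhoc, the kinases Rock1 and Rock2, the LIM kinases Limk1 and Limk2, the cofilins Cfl1 and Cfl2, and the cofilin phosphatase Ssh1. They were taken by symbol from the 33560 genes with counts, and all 10 passed the filter on low counts that left 15443 genes for testing. RNA was sequenced from mouse neurons differentiated in culture from embryonic stem cells, labelled as glutamatergic and harvested at day in vitro 21. The 12 libraries form 4 groups of 3: wild-type (WT) and Daam1-MIC knockout (KO) neurons, each exposed for 2 h to water as vehicle or to 10 µM Y-27632, a compound that inhibits the ROCK kinases. The KO lacks a microexon, a very short exon, of Daam1, which encodes a formin that assembles actin filaments. The sample titles number the cultures WT1 to WT3 and KO1 to KO3, and these are called lines here. Each line gave 1 vehicle and 1 inhibitor library, so n = 3 lines in every group. Whether the lines are independent clones or separate differentiations is not stated in the labels, and p-values measure only the spread between these libraries.

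RhoA and its relatives are molecular switches that bind GTP and then engage effectors, among them the ROCK kinases. ROCK phosphorylates LIM kinase, LIM kinase phosphorylates cofilin and so blocks it from severing actin filaments, and the slingshot phosphatases remove that phosphate. In neurons the pathway is known for restraining neurite outgrowth, for growth cone collapse and for the shape of dendritic spines. The inhibitor acts on the kinase proteins, whereas the values here are RNA levels, which do not report kinase activity or cofilin phosphorylation.

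The windows just upstream of the transcript start are shown for Rhob, the GTPase gene that was lower in the one divergent library described below, and for Cfl1, the member with the smallest spread between libraries. They are RefSeq sequence of GRCm38.p6, each of 250 bases and written 5′ to 3′ on the gene's strand, with capitals marking matches on either strand to the GC box, GGGCGG, known to bind Sp family factors, or to the motif of the NF-Y factor, CCAAT.
Rhob, chr12:8500010-8500259, minus strand: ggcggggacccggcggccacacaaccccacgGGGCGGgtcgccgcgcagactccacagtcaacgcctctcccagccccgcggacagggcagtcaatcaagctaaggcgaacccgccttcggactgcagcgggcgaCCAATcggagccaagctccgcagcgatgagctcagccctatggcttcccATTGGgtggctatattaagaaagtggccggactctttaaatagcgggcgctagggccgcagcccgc
Cfl1, chr19:5490205-5490454, plus strand: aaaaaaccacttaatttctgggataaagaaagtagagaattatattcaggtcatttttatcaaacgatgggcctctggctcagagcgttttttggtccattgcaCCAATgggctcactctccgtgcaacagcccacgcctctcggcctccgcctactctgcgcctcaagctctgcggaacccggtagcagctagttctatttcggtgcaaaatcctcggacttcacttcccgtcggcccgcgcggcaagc
The Rhob window holds 1 GC box and 2 matches to CCAAT, and the Cfl1 window holds 1 match to CCAAT. The motifs do not overlap each other. Of 32851 windows of the same length, 32.7% hold GGGCGG and 33.8% hold CCAAT, so neither motif is rare. Neither window holds TATAAA, found in 12.4% of all windows, CATTCC, the core bound by TEAD factors, found in 12.6%, or a CArG box, the site of serum response factor, found in 1.47%.

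Library totals ran from 23253566 to 35012561 counts. Levels are given as CPM, in which each count is divided by the TMM-adjusted size of its library, and, where genes are compared with each other, as the deposited cRPKM, which is scaled by gene length. One library stood apart: the KO line 3 library given inhibitor had a median correlation of 0.854 with the other libraries over log2 CPM, against 0.953 to 0.986 for the other 11. In that library 77.4% of the 15443 tested genes lay above or below all 11 others. Its 7 pan-neuronal markers summed to 1130 CPM, against 3420 to 5098 CPM in the other 11, and its 6 astrocyte markers summed to 1189 CPM, against 58.1 to 336.6 CPM. Results that rest on it are given with and without it. Of the 5 glutamatergic markers, Slc17a6 reached 242 to 424 CPM in the other 11 libraries and 51.7 CPM in that one, while Slc17a7, Tbr1, Neurod6 and Neurod2 stayed at or below 2.07 CPM in all 12, and of the 5 GABAergic markers Gad1, Gad2 and Slc32a1 each reached at least 122 CPM in the other 11, while Dlx1 and Dlx2 stayed at or below 1.11 CPM in all 12. The cultures therefore carry 1 of the 5 listed glutamatergic markers, Slc17a6, at an appreciable level, and whether they are of the labelled type was not tested. Daam1 as a whole gene ran from 154 to 183 CPM in WT vehicle and from 155 to 182 CPM in KO vehicle. It ran from 133 to 169 CPM in WT inhibitor and from 67.9 to 188 CPM in KO inhibitor. A gene-level count does not check the deletion of a microexon. In such bulk RNA, fewer cells of a type and less RNA per cell cannot be told apart.

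None of the 10 genes passed the test in any comparison. With edgeR's quasi-likelihood test and Benjamini-Hochberg adjustment over all 15443 genes, 0 of 10 had an adjusted p below 0.05 for KO against WT in vehicle, for KO against WT in inhibitor, for inhibitor against vehicle in WT, for inhibitor against vehicle in KO, or for the interaction of genotype and treatment. The background was the same: 0% of all tested genes passed in each of the 5 comparisons. At an unadjusted p below 0.05, the count of members was 0 for KO against WT in vehicle (all genes, 1.99%), 0 for KO against WT in inhibitor (3.5%), 0 for inhibitor against vehicle in WT (0.304%), 1 for inhibitor against vehicle in KO (7.05%) and 0 for the interaction (1.2%). That single member was Rhoc. DESeq2 also called 0 members at an adjusted p below 0.05, where it called 0.0712% of all genes for KO against WT in vehicle, 0.117% for KO against WT in inhibitor and 0% in the other 3 comparisons. At an unadjusted p below 0.05, DESeq2 counted Ssh1 for inhibitor against vehicle in WT (all genes, 0.427%) and Rhoc and Rhoa for inhibitor against vehicle in KO (14%). It counted 0 members for KO against WT in vehicle (3.23%), KO against WT in inhibitor (5.61%) and the interaction (3.29%).

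A weaker description is whether the 3 libraries of one group all lie on one side of the 3 of the other. In each of the 4 pairwise comparisons this held for 1 of 10 members, each time with the KO or inhibitor group lower. The members were Ssh1 for KO against WT in vehicle, where 12.5% of all tested genes did not overlap, Limk2 for KO against WT in inhibitor (10.5%), Ssh1 for inhibitor against vehicle in WT (5.97%) and Cfl2 for inhibitor against vehicle in KO (8.84%). With 10 members, 1 of 10 is near the background share in all 4 comparisons. Differences between the inhibitor and vehicle library of each line are also given below. How many of all tested genes moved in one direction in all 3 lines of a genotype was not counted. Deviations of paired libraries from their group means correlated from -0.72 to 0.57, so a count of 3 of 3 lines is a description only.

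Per gene length, the levels spanned a wide range. Cfl1, the main non-muscle cofilin, was the most abundant at a mean of 254.5 cRPKM over the 12 libraries, followed by Rhob at 101.7, Rhoa at 74.2, Limk1 at 62.6, Cfl2 at 57.9, Limk2 at 45.6, Rhoc at 22.2, Rock2 at 11.96, Ssh1 at 3.85 and Rock1 at 3.82 cRPKM. Of the 9 pairs of neighbours in this order, 3 kept their order in all 12 libraries: Cfl1 above Rhob, Cfl2 above Limk2, and Rock2 above Ssh1. Rhob lay above Rhoa and Limk2 above Rhoc in 11 of 12 libraries, the exception each time being the KO line 3 inhibitor library. Rhoa and Limk1 did not differ beyond their spread, Rhoa being higher in 4 of 12 libraries, nor did Rhoc and Rock2, with Rhoc higher in 4 of 12. Ssh1 lay above Rock1 in 9 of 12 and Limk1 above Cfl2 in 10 of 12. These means include the KO line 3 inhibitor library. Over the other 11 libraries the mean of Rhoc was 12.1 cRPKM, near the 11.7 of Rock2, and that of Rhoa was 63.5, below the 66.2 of Limk1, while the other 8 genes kept their places in the order.

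**Figure D1:**
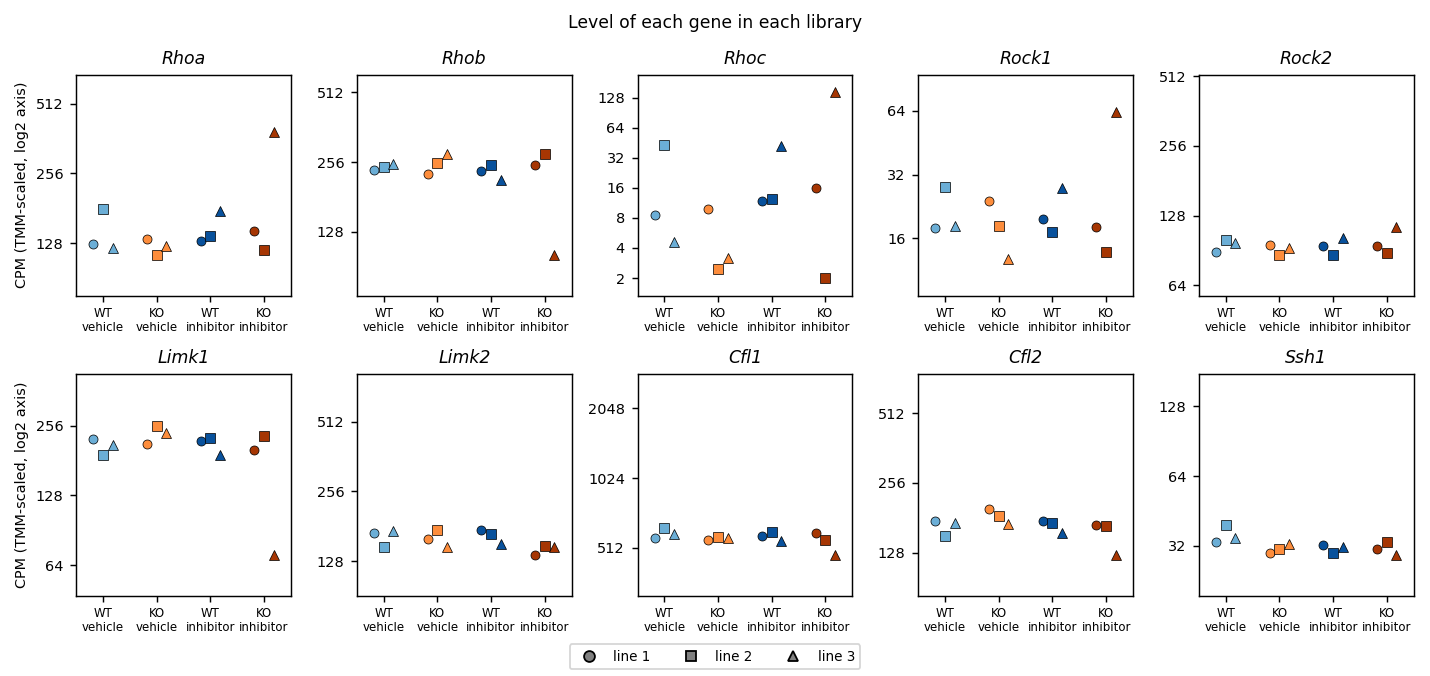
Level of each of the 10 genes in each library, as TMM-scaled CPM on a log2 axis whose range differs between panels; columns are the 4 groups, symbols are the 3 lines of each genotype. In Rhoa, Rhoc and Rock1 the KO line 3 inhibitor library (triangle, last column) is the highest point, at 387, 145 and 63.5 CPM, and in Rhob and Limk1 it is the lowest, at 102 and 71.1 CPM.

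Rhoa (ENSMUSG00000007815, chr9:108306129-108337934, plus strand, GRCm38), the founding switch of the pathway, was measured at 127, 180 and 122 CPM in WT vehicle lines 1 to 3, at 134, 114 and 124 CPM in KO vehicle, at 131, 138 and 176 CPM in WT inhibitor and at 145, 120 and 387 CPM in KO inhibitor. All groups overlapped, and the third KO inhibitor value was more than any other library's. KO against WT differed by a log2 fold change of -0.20 ± 0.38 (SE) in vehicle and 0.55 ± 0.38 in inhibitor. Inhibitor against vehicle gave 0.06 ± 0.38 in WT and 0.81 ± 0.39 in KO, with an edgeR adjusted p of 0.474 for the latter. Rhoa was higher with inhibitor in 3 of 3 KO lines, by 0.12, 0.07 and 1.64 on the log2 scale, so that 1 line carried nearly all of the mean. Without the KO line 3 inhibitor library the KO difference was 0.10 ± 0.19 and KO against WT in inhibitor turned to -0.16 ± 0.19. Rhoa exons overlap those of Tcta on the opposite strand (399 to 1027 counts) and Rhoa has 2 processed pseudogenes of at least 95% identity over 200 or more bases, so its 2635 to 12158 counts could include or lose reads of these.

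Rhob (ENSMUSG00000054364, chr12:8497661-8500009, minus strand), a single-exon and rapidly inducible relative found on endosomes as well as at the plasma membrane, held 238, 244 and 251 CPM in WT vehicle, 227, 254 and 277 CPM in KO vehicle, 234, 250 and 213 CPM in WT inhibitor and 248, 279 and 102 CPM in KO inhibitor. In 11 of 12 libraries it stayed between 213 and 279 CPM. The KO line 3 inhibitor library was at 0.411 times the median of the others. The fitted difference between KO and WT was 0.05 ± 0.30 in vehicle, and that between inhibitor and vehicle was -0.07 ± 0.30 in WT and -0.27 ± 0.30 in KO. Leaving out that library moved the KO value to 0.06 ± 0.10, and KO against WT in inhibitor from -0.15 ± 0.30 to 0.18 ± 0.10.

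Rhoc (ENSMUSG00000002233, chr3:104788375-104794459, plus strand), the family member best known from cell migration, was the most variable member. Its WT vehicle lines held 8.57, 42.5 and 4.54 CPM, its KO vehicle lines 9.92, 2.47 and 3.18 CPM, its WT inhibitor lines 11.7, 12.5 and 42.1 CPM, and its KO inhibitor lines 16.03, 2.00 and 145 CPM. High values came once in each of 3 groups and from a different line or treatment each time, and the highest library was 72.6 times the lowest. Within WT line 2 Rhoc was lower with inhibitor by a log2 difference of -1.76, within WT line 3 it was higher by 3.19, and within KO line 3 it was higher by 5.48. The fit gave 3.38 ± 1.43 for inhibitor against vehicle in KO (95% interval 0.19 to 6.58, unadjusted p = 0.0400, adjusted p = 0.474, edgeR), the only member past an unadjusted 0.05. With the cell line as a block the same difference was 1.65 ± 1.56 (unadjusted p = 0.332, edgeR), and without the KO line 3 inhibitor library it was 0.79 ± 1.16. KO against WT was -1.83 ± 1.35 in vehicle, and in inhibitor it was 1.30 ± 1.32 with that library and -1.29 ± 1.20 without it.

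Rock1 and Rock2, the direct targets of Y-27632, differed in level and in spread. Rock1 (ENSMUSG00000024290, chr18:10064401-10182045, minus strand) held 17.8, 27.9 and 18.2 CPM in WT vehicle, 24.1, 18.3 and 12.8 CPM in KO vehicle, 19.8, 17.1 and 27.8 CPM in WT inhibitor and 18.1, 13.8 and 63.5 CPM in KO inhibitor. Rock2 (ENSMUSG00000020580, chr12:16894895-16987823, plus strand), the isoform usually described as predominant in brain, held 89.1, 101 and 97.4 CPM in WT vehicle, 95.4, 86.8 and 92.5 CPM in KO vehicle, 94.2, 86.6 and 103 CPM in WT inhibitor and 94.3, 88.2 and 114 CPM in KO inhibitor. The groups overlapped for both kinases, and the KO line 3 inhibitor library was the highest for both, at 3.48 times the median of the other 11 for Rock1 and 1.21 times for Rock2. The 2 h inhibitor exposure was accompanied by a Rock2 difference of -0.02 ± 0.12 in WT, with a 95% interval from -0.28 to 0.25, and of 0.11 ± 0.12 in KO. The interval for Rock1 in WT was wider, from -1.15 to 1.17 around 0.01. In KO the Rock1 difference was 0.79 ± 0.52 with all libraries and -0.20 ± 0.31 without the KO line 3 inhibitor library, since Rock1 was lower with inhibitor in KO lines 1 and 2 (-0.41 in both) and higher in line 3 by 2.30. KO against WT in vehicle was -0.21 ± 0.52 for Rock1 and -0.06 ± 0.12 for Rock2. In inhibitor it was 0.56 ± 0.52 for Rock1 and 0.06 ± 0.12 for Rock2, and without the divergent library both turned negative, to -0.43 ± 0.31 and -0.05 ± 0.09. Rock1 has 1 pseudogene, Gm5374, of at least 95% identity whose reads the counting could share.

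The LIM kinases carry the ROCK signal to cofilin. Limk1 (ENSMUSG00000029674, chr5:134656039-134688598, minus strand), the form enriched in neurons, held 224, 191 and 212 CPM in WT vehicle, 213, 254 and 238 CPM in KO vehicle, 220, 225 and 191 CPM in WT inhibitor and 201, 232 and 71.1 CPM in KO inhibitor. Its lowest value, again KO line 3 with inhibitor, was 0.323 times the median of the other 11, the furthest below that median of the 10 members. Limk1 was lower with inhibitor in 3 of 3 KO lines, at log2 differences of -0.09, -0.14 and -1.74. The fitted difference in KO was -0.49 ± 0.34 with all libraries and -0.12 ± 0.11 without that one, and in WT it was 0.02 ± 0.34. KO against WT was 0.17 ± 0.34 in vehicle, and in inhibitor it was -0.34 ± 0.34 with the library and 0.03 ± 0.11 without it.

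Limk2 (ENSMUSG00000020451, chr11:3344256-3409189, minus strand), the more widely expressed LIM kinase, was the only member that the divergent library left inside the range of the others. It held 169, 147 and 173 CPM in WT vehicle, 160, 174 and 148 CPM in KO vehicle, 174, 168 and 152 CPM in WT inhibitor and 137, 149 and 147 CPM in KO inhibitor. All 3 inhibitor-treated KO lines lay below all 3 inhibitor-treated WT lines. The difference there was -0.19 ± 0.11 (edgeR adjusted p = 0.856), and -0.21 ± 0.10 without the KO line 3 library (adjusted p = 0.546), so it did not pass the test in either fit. In vehicle KO and WT differed by -0.02 ± 0.11. Inhibitor against vehicle was 0.01 ± 0.11 in WT and -0.16 ± 0.11 in KO, with Limk2 lower in 3 of 3 KO lines at -0.23, -0.23 and -0.01.

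Cofilin severs and depolymerises actin filaments when it is not phosphorylated. Cfl1 (ENSMUSG00000056201, chr19:5490455-5495201, plus strand) held 567, 623 and 585 CPM in WT vehicle, 551, 573 and 567 CPM in KO vehicle, 573, 598 and 551 CPM in WT inhibitor and 593, 556 and 478 CPM in KO inhibitor. The groups overlapped, and outside the KO line 3 inhibitor library the highest value was 1.13 times the lowest. The 4 differences between groups lay from -0.08 to -0.04 with an SE of 0.13 each. In WT the interval for the inhibitor ran from -0.33 to 0.25. Cfl1 shares exonic sequence with Snx32 on the opposite strand (447 to 1595 counts, against 13237 to 19233 for Cfl1) and with the processed pseudogene Gm6180.

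Cfl2 (ENSMUSG00000062929, chr12:54858809-54862877, minus strand), the muscle-type cofilin that neurons also make, held 176, 151 and 171 CPM in WT vehicle, 197, 184 and 170 CPM in KO vehicle, 175, 173 and 155 CPM in WT inhibitor and 168, 167 and 125 CPM in KO inhibitor. The 3 inhibitor-treated KO libraries lay below the 3 vehicle-treated KO libraries, narrowly so for lines 1 and 2. Cfl2 was lower in 3 of 3 KO lines, at log2 differences of -0.23, -0.14 and -0.44, and the fit gave -0.26 ± 0.14 (edgeR adjusted p = 0.474). Without the line 3 library the difference was -0.13 ± 0.09. In WT the inhibitor difference was 0.01 ± 0.14, and the interaction, the difference between these responses, was -0.27 ± 0.19 (edgeR adjusted p = 0.808). KO against WT was 0.14 ± 0.14 in vehicle and -0.13 ± 0.14 in inhibitor.

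Ssh1 (ENSMUSG00000042121, chr5:113937094-113993894, minus strand), the slingshot phosphatase that reactivates cofilin, held 33.3, 39.3 and 34.6 CPM in WT vehicle, 29.7, 31.1 and 32.6 CPM in KO vehicle, 32.2, 29.7 and 31.6 CPM in WT inhibitor and 31.0, 33.1 and 29.3 CPM in KO inhibitor. The 3 WT vehicle libraries were thus the highest of the 12, while the other 3 groups overlapped each other. KO against WT in vehicle was -0.20 ± 0.10 (edgeR adjusted p = 0.999) and inhibitor against vehicle in WT was -0.20 ± 0.10 (edgeR adjusted p = 1.00); these differences share the WT vehicle libraries. Ssh1 was lower with inhibitor in 3 of 3 WT lines and higher in 2 of 3 KO lines, and the interaction was 0.20 ± 0.14 (edgeR adjusted p = 0.808). Without the KO line 3 inhibitor library the spread was smaller and the unadjusted edgeR p was 0.0363 for KO against WT in vehicle and 0.0384 for inhibitor against vehicle in WT, with adjusted p of 0.569 and 1.00. WT vehicle line 2, the highest library for Ssh1, weighed on both differences: with it and the KO line 3 inhibitor library left out they were -0.12 ± 0.09 and -0.15 ± 0.09.

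**Figure D2:**
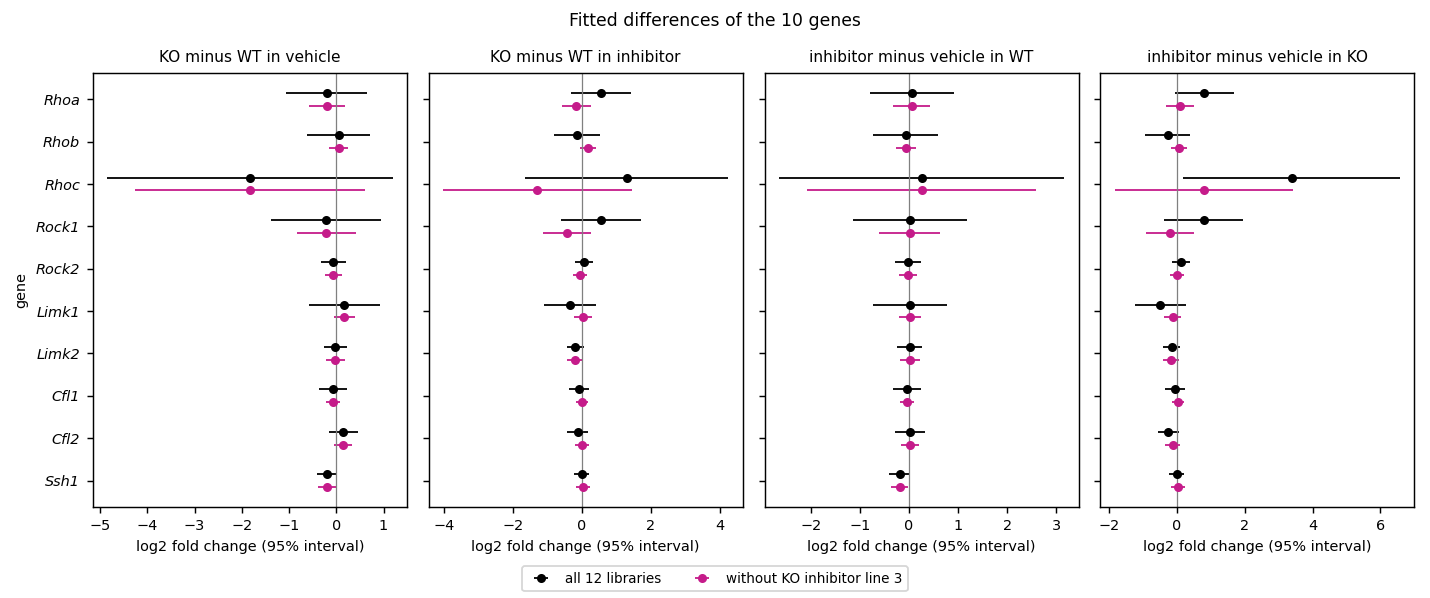
Fitted log2 fold changes of the 10 genes with 95% intervals in the 4 pairwise comparisons, from all 12 libraries (black) and without the KO line 3 inhibitor library (magenta); the horizontal range differs between panels. With all libraries, 1 interval excludes 0, that of Rhoc for inhibitor against vehicle in KO (0.19 to 6.58), and it narrows and moves towards 0 without that library. Without that library the Ssh1 intervals for KO against WT in vehicle and for inhibitor against vehicle in WT exclude 0, with no adjusted p below 0.05.

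Over the 10 members the median log2 fold change was -0.07 for KO against WT in vehicle, -0.04 for KO against WT in inhibitor, 0.01 for inhibitor against vehicle in WT and -0.03 for inhibitor against vehicle in KO. Over all tested genes the medians were -0.01, -0.00, 0.01 and -0.02 in the same order. In WT all 10 fitted inhibitor differences lay between -0.20 and 0.25, but with unlike errors. For Rhoc the difference was 0.25 ± 1.30 (95% interval -2.65 to 3.16). For Rock1 it was 0.01 ± 0.52 (-1.15 to 1.17), so neither was closely bounded. For KO against WT in inhibitor, 9 of the 10 fitted differences changed sign when the KO line 3 inhibitor library was left out, and Limk2 was the one that did not. Cfl1, Cfl2 and Ssh1 were among those 9, and each was within 0.04 of 0 without that library. With that library Ssh1 was at -0.0034 ± 0.099, so its sign carries no weight. The share of all tested genes that changed sign was not counted.

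The paralogs within most families shared their summed cRPKM differently in the KO line 3 inhibitor library than in the other 11. Rock1 made up 15.3% to 26.5% of the ROCK sum in the other 11 libraries and 42.0% in that one. Rhoa made up 31.2% to 38.9% and 51.5%, Rhob 43.9% to 67.8% and 12.7%, and Rhoc 0.967% to 17.3% and 35.9% of the sum of Rhoa, Rhob and Rhoc. Rhob was thus the leading gene of these in the 11 libraries and the least of the 3 in the divergent one. Limk1 made up 56.4% to 63.0% of the LIM kinase sum and 33.7% there, so that Limk2 took the larger share. Cfl2 kept its proportion, at 15.8% to 21.6% of the cofilin sum and 16.8%.

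**Figure D3:**
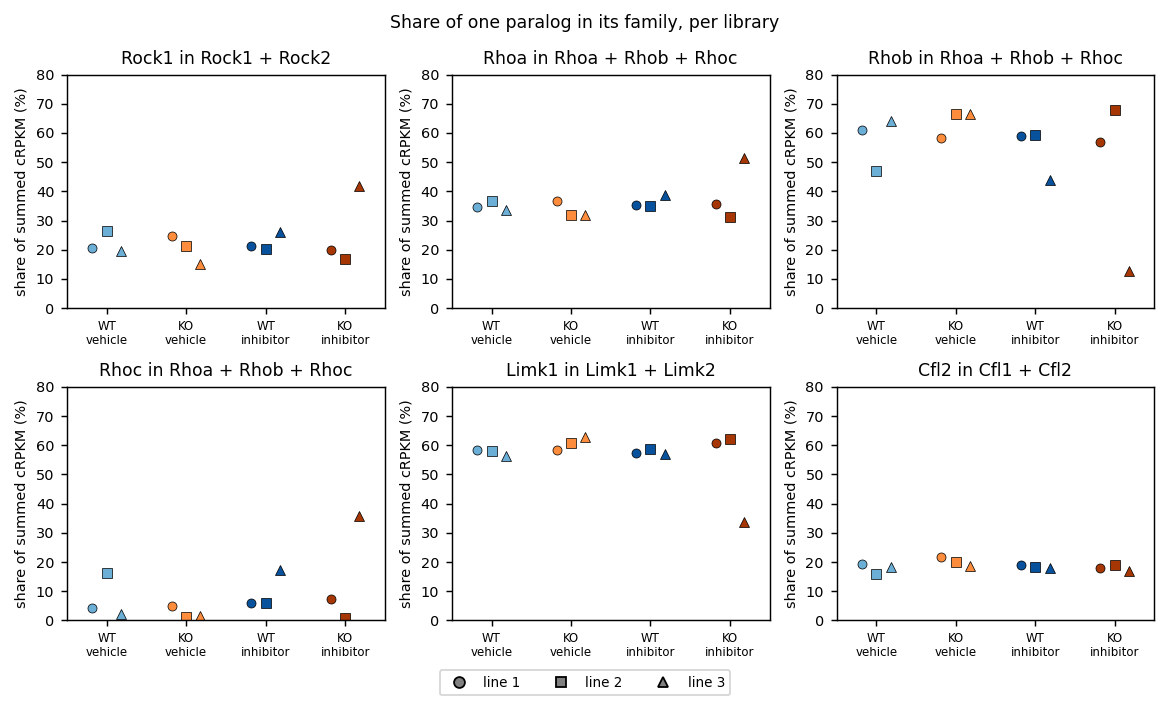
Share of one paralog in the summed cRPKM of its family, in percent, for each library; columns are the 4 groups and symbols the 3 lines. The KO line 3 inhibitor library (triangle, last column) lies outside the other 11 for the Rock1, Rhoa, Rhob, Rhoc and Limk1 shares and inside them for Cfl2 at 16.8%.

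The family sums lay on different sides of the other libraries there. The 3 GTPase genes summed to 371 cRPKM against 165 to 220 in the other 11, and the 2 ROCK genes to 26.1 against 13.2 to 17.3. The LIM kinases summed to 68.1 cRPKM against 97.6 to 127, and the cofilins to 273.7 against 298.6 to 327.6. The sums for the switches and their kinases were therefore above, and those for LIM kinase and cofilin below, every other library. At the level of single genes, Rhoa, Rhoc, Rock1 and Rock2 lay above all 11 others and Rhob, Limk1, Cfl1, Cfl2 and Ssh1 below them, 9 of 10 members against 77.4% of all tested genes. With library totals in place of TMM factors Ssh1 lay inside the range, which left 4 above and 4 below.

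Rhoa, Rhoc, Rock1 and Rock2 had the same 3 highest libraries: the KO line 3 inhibitor library was highest, and WT vehicle line 2 and WT inhibitor line 3 took the next 2 ranks. Below these the order of libraries differed between the genes. Limk1 and Cfl2 had the same 3 libraries as their 3 lowest. How many of all tested genes shared either pattern was not counted, but these libraries were also set apart over all tested genes. On the first principal component of log2 CPM, the axis of largest variance (74.3%), KO inhibitor line 3 stood at 162.9. WT vehicle line 2 stood at 68.1 and WT inhibitor line 3 at 60.3, while the others ran from -73.8 to 1.41. The shared ranks are thus not particular to the members. The same 3 libraries had the highest sums for 7 of the 11 marker lists. These were the astrocyte, progenitor, mesenchymal, endothelial, smooth muscle, microglial and pluripotent lists. The 3 neuronal lists had their lowest sums in these libraries, and the oligodendrocyte list followed neither pattern. The pluripotent sums in the 3 libraries were 2.21 to 8.91 CPM, and Pou5f1 stayed at or below 0.351 CPM in all 12. The 6 progenitor markers (Sox2, Nes, Vim, Pax6, Hes5, Mki67) summed to 744.8 CPM in KO inhibitor line 3, 311.7 CPM in WT vehicle line 2 and 323.4 CPM in WT inhibitor line 3, against 39.0 to 122.6 CPM in the other 9. Over the groups that sum ran from 39.0 to 311.7 CPM in WT vehicle, 39.6 to 90.0 CPM in KO vehicle, 90.0 to 323.4 CPM in WT inhibitor and 45.7 to 744.8 CPM in KO inhibitor. The 9 mesenchymal markers summed to 1363 CPM in WT vehicle line 2, 907.7 CPM in WT inhibitor line 3 and 582.9 CPM in KO inhibitor line 3, against at most 425.8 CPM elsewhere. In the KO line 3 library that sum was mainly Pdgfra at 509 CPM, while Col1a1 was at 20.3 CPM, inside the range of the other 11. Only 1 of the 9 mesenchymal markers, Pdgfra, lay above the other 11 in the KO line 3 library. There 2 lay below them: Postn at 1.97 CPM against 4.83 to 90.9, and Twist1 at 4.90 CPM against 7.39 to 10.5. There all 6 astrocyte and all 6 progenitor markers lay above the other 11 libraries and all 7 pan-neuronal markers below them. Of the 4 endothelial markers 3 lay above the other 11, Tek reaching 131 CPM, while Pecam1 was at its lowest at 0.254 CPM. Of the 5 smooth muscle markers 0 lay above the other 11, and Myh11 was at its lowest at 0.0636 CPM. The 4 microglial markers summed to 13.0 CPM there, against 0.389 to 8.18 CPM in the other 11, nearly all of it Csf1r at 12.9 CPM, while Cx3cr1 and P2ry12 had at most 1 count in any library. The 5 oligodendrocyte markers summed to 32.6 CPM, against 15.9 to 21.1 CPM: Olig1 was at 24.5 CPM against at most 4.75, Sox10 had counts only there (9), Mbp was at its lowest, and Mog had at most 2 counts in any library. The part of these cells in the values of Rhoa, Rhoc, Rock1, Rock2, Rhob and Limk1 was not tested.

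**Figure D4:**
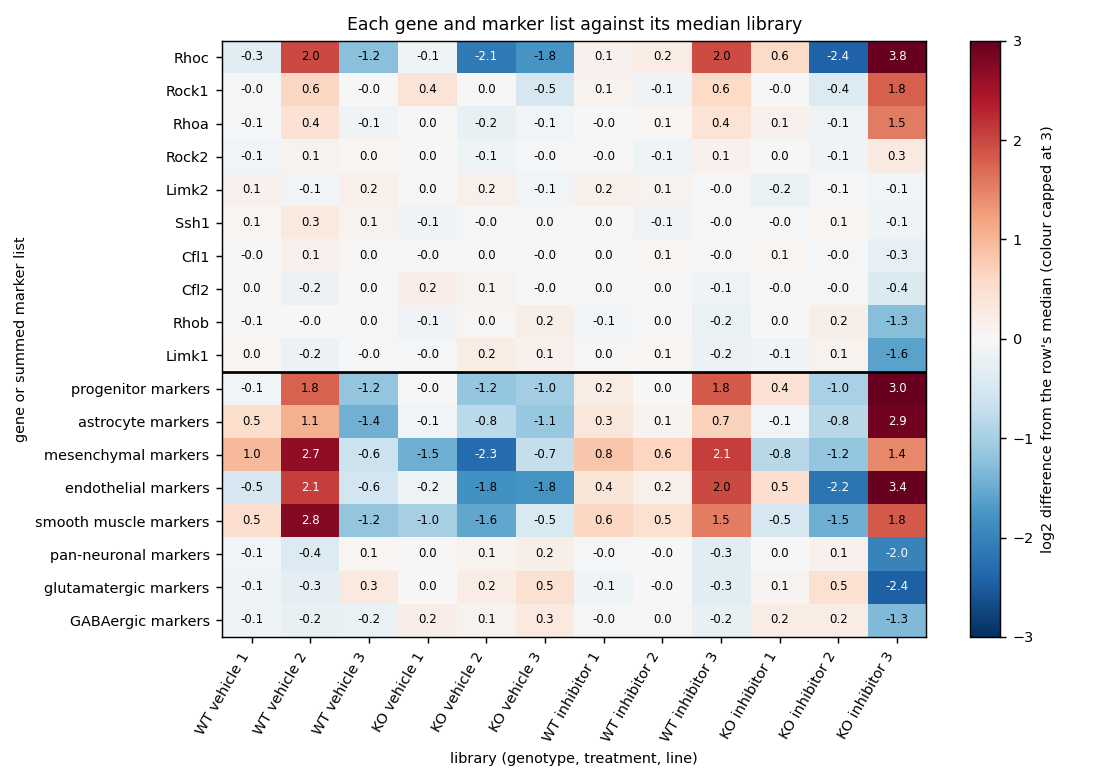
Log2 difference of each gene (CPM) and each summed marker list from its median over the 12 libraries, with libraries in columns and the colour capped at 3. Rhoc, Rock1 and Rhoa are high in the same 3 columns as the progenitor markers, and Rhob and Limk1 are low in the KO inhibitor 3 column together with the pan-neuronal markers.

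The members differed in the size of their spread, which is not the same as whether they followed the libraries named above. Rock2 was highest and Cfl2 lowest in those libraries, each with a small spread. Over all 12 libraries the SD of log2 CPM was 1.83 for Rhoc, 0.61 for Rock1, 0.48 for Rhoa and Limk1, and 0.38 for Rhob, against a median of 0.37 over all tested genes. It was 0.16 for Cfl2, 0.12 for Limk2, Ssh1 and Rock2, and 0.09 for Cfl1. Over the other 11 libraries the SD dropped to 0.13 for Limk1 and 0.11 for Rhob, below the all-gene median of 0.21, and stayed at 1.48 for Rhoc, 0.36 for Rock1 and 0.22 for Rhoa. The large deviations of Limk1 and Rhob thus lay in 1 library, and those of Rhoc and Rock1 in several. The next lowest Limk1 values, 191 CPM each, came from WT vehicle line 2 and WT inhibitor line 3. Among the members, the profiles of Cfl1 and Ssh1 (root mean square difference of centred log2 CPM 0.09) were the closest over the 12 libraries, and those of Rhoc and Limk1 (2.13) the farthest apart.

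The gene outside the family with the nearest profile was sought among 13414 genes with a mean of at least 1 CPM over the 12 libraries, as a description with no test. It was Dram1 for Rhoc (root mean square difference 0.14, against a median of 1.77 over the genes searched), Fcho2 for Rock1 (0.11 against 0.67), Golt1b for Rhoa (0.05 against 0.57), Mapk8ip1 for Limk1 (0.05 against 0.49) and Noct for Rhob (0.05 against 0.42). Fcho2, for example, ran from 14.2 to 28.3 CPM in the other 11 libraries and stood at 66.9 CPM in the KO line 3 inhibitor library, and Mapk8ip1 from 395 to 525 CPM and at 155 CPM. For the members of smaller spread it was Ktn1 for Rock2, Tsc2 for Limk2, Ube2v1 for Cfl1, Yaf2 for Cfl2 and Fam193a for Ssh1.

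The wider pathway was described by 42 further genes: exchange factors (GEFs) that load the GTPases with GTP, GTPase-activating proteins (GAPs) that switch them off, the inhibitors (GDIs) that hold them in the cytosol, effectors and ROCK substrates, and other regulators on the cofilin side. Of these, 41 were tested, Pdxp is not analysed here, and 0 of 41 passed the edgeR test in any of the 5 comparisons. At an unadjusted p below 0.05, 2 of 41 were higher for inhibitor against vehicle in KO, 1 was lower for KO against WT in inhibitor, and none was counted in the other 3 comparisons. The 2 were Rhpn2 (rhophilin, a GTPase-binding scaffold) at 3.70 ± 1.41 and Ezr (ezrin, which links actin to the membrane) at 3.07 ± 1.26, each with an edgeR adjusted p of 0.474. Without the KO line 3 inhibitor library they were 0.88 ± 1.03 and 0.60 ± 0.95. The 1 was Cit, encoding citron kinase, at -0.42 ± 0.18 in inhibitor (edgeR adjusted p = 0.856) and -0.30 ± 0.18 in vehicle, lower in the KO with no overlap in both. Without that library the inhibitor difference of Cit was -0.22 ± 0.11. Rtkn, the rhotekin gene, next in order for KO against WT, was at 0.37 ± 0.21 in inhibitor and 0.36 ± 0.21 in vehicle. For inhibitor against vehicle in WT the smallest unadjusted p belonged to Tesk2, a kinase of cofilin, at -0.48 ± 0.32, and Cap2, an actin-binding partner of cofilin, at -0.28 ± 0.24, with adjusted p of 1.00 (edgeR). For the interaction they belonged to Rhpn2 at 3.34 ± 1.84 and Ezr at 2.83 ± 1.67, with adjusted p of 0.808 (edgeR).

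In the KO line 3 inhibitor library 35 of these 41 genes lay outside the other 11, 23 above and 12 below. By role, 7 of 10 exchange factors and 8 of 12 effectors or ROCK substrates lay above all others, as did 4 of 8 GAPs, 1 of 3 GDIs and 3 of 8 genes on the cofilin side, where 38.4% of all tested genes lay above and 39% below. With 3 to 12 genes a role, no difference between roles was tested. The ratio to the median of the other 11 was 20.2 for Rhpn2, 14.6 for Ezr, 6.51 for the exchange factor Ect2 and 5.52 for Msn (moesin). At the other end it was 0.229 for Arhgap26, 0.281 for Arhgdig and 0.285 for Dpysl2, a ROCK substrate of growth cones. Dstn (destrin), the third member of the cofilin family, was at 548 CPM there against at most 292 CPM in the other 11, whereas Cfl1 and Cfl2 were at their lowest. The members and the wider pathway thus had the same divergent library in common, and neither list held a gene that passed the test between groups.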

How the data were processed

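The 12 tables give, per Ensembl gene, a read count and a cRPKM value. The deposited counts are whole numbers that were not normalized, from the values in the files. The deposited cRPKM column is a kind of RPKM (reads per length of gene and depth of library), and the labels do not say what its correction is. Per the labels' protocols, polyA-selected stranded libraries were made, and the submitters' processing notes name mm10 as the genome build. The aligner, the annotation and the strand setting of the counting are not given in the sources used here. Of 36902 genes listed, 3342 were NA in every table and 33560 had counts, of which 33371 matched a symbol. The text on the series speaks of hippocampus, while all sample labels describe cultured neurons, and the sample labels were followed.

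Counts were tested with edgeR 4.0.16 in R 4.3.3: filterByExpr by group, TMM factors, estimateDisp, robust glmQLFit and the quasi-likelihood F test, with 1 fit of all 12 libraries and a coefficient per group. The biological coefficient of variation was 0.411. P-values were adjusted with Benjamini-Hochberg over all 15443 genes tested and called at 0.05. Log2 CPM used a prior count of 2. The script was tested on simulated data. Alternatives were library totals, RLE factors, no filter, DESeq2 1.42.0, only the 2 groups compared, a replicate block, and leaving out each library or KO inhibitor line 3 with WT vehicle line 2. Shares from counts in place of cRPKM, and with each library left out, were added after seeing the data.

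Vehicle and inhibitor libraries with the same number in their titles were taken as pairs from 1 line. Their deviations from the group means correlated at 0.41, -0.55 and -0.72 for WT lines 1 to 3 and -0.19, 0.57 and -0.37 for KO lines 1 to 3. The replicate number, which joins different lines, was the block for KO against WT. Coordinates of genes are from GENCODE M21 (GRCm38) and promoter windows from RefSeq (GRCm38.p6), where 9 members matched. Near copies were sought among transcripts at 95% identity over 200 bases.

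The members, the wider pathway list and the markers were chosen with earlier results of these data known. Named were all members, the 2 pathway genes with the smallest p per comparison, the nearest profile of each member, and markers beside their list. Pathway genes named for their level in KO inhibitor line 3 were chosen after their values were seen.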

Additional observations from a re-analysis of the deposited data

How the results depend on the processing

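No member passed the edgeR or DESeq2 test at an adjusted p below 0.05 under any alternative run, and 0 genes of the whole table did so in the 5 comparisons under the edgeR alternatives. DESeq2 called 11 genes for KO against WT in vehicle and 18 in inhibitor, none of them a member or a gene of the wider pathway list. Many fitted differences of members changed sign between settings, and the cause was not tested. The values that did so are the following log2 fold changes. Leaving out KO inhibitor line 3 and WT vehicle line 2 together gave reversed values in all 5 comparisons. For KO against WT in vehicle these were Rock1 0.027. For KO against WT in inhibitor these were Rhoa -0.11, Rhob 0.23, Rhoc -1.25, Rock1 -0.38, Rock2 -0.0028, Limk1 0.074, Cfl1 0.0503, Cfl2 0.049 and Ssh1 0.088. For inhibitor against vehicle in WT these were Limk1 -0.068, Limk2 -0.087 and Cfl2 -0.081. For inhibitor against vehicle in KO these were Rhob 0.075, Rock1 -0.19, Cfl1 0.042 and Ssh1 0.056. For the interaction these were Rhoa -0.11, Rhob 0.18, Rhoc -0.92, Rock1 -0.41 and Cfl1 0.078. Library totals gave Ssh1 0.028 for KO against WT in inhibitor, and Limk2 -0.000734 and Cfl2 -0.00148 for inhibitor against vehicle in WT, and Ssh1 0.051 for inhibitor against vehicle in KO, and Cfl1 0.0505 for the interaction. RLE factors gave Ssh1 0.041 for KO against WT in inhibitor, and Rock1 -0.0071, Limk2 -0.00701 and Cfl2 -0.00759 for inhibitor against vehicle in WT, and Ssh1 0.015 for inhibitor against vehicle in KO, and Cfl1 0.024 for the interaction. The fit with no low-count filter gave Ssh1 0.041 for KO against WT in inhibitor, and Rock1 -0.016, Limk1 -0.00898, Limk2 -0.018 and Cfl2 -0.019 for inhibitor against vehicle in WT, and Ssh1 0.017 for inhibitor against vehicle in KO, and Cfl1 0.037 for the interaction. The fit of only the 2 groups compared gave Ssh1 0.036 for KO against WT in inhibitor, and Rock1 -0.0034, Limk2 -0.00551 and Cfl2 -0.0062 for inhibitor against vehicle in WT, and Ssh1 0.031 for inhibitor against vehicle in KO. DESeq2 gave Ssh1 0.041 for KO against WT in inhibitor, and Rock1 -0.0072, Limk2 -0.0072 and Cfl2 -0.0077 for inhibitor against vehicle in WT, and Ssh1 0.016 for inhibitor against vehicle in KO, and Cfl1 0.024 for the interaction.

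Leaving out 1 library at a time gave ranges that include 0. For KO against WT in vehicle they ran from -0.021 to 0.12 for Rhob, -0.45 to 0.022 for Rock1 and -0.092 to 0.037 for Limk2. For KO against WT in inhibitor they ran from -0.16 to 0.84 for Rhoa, -0.41 to 0.18 for Rhob, -1.29 to 2.17 for Rhoc, -0.43 to 0.91 for Rock1, -0.051 to 0.13 for Rock2, -0.65 to 0.026 for Limk1, -0.15 to 0.0032 for Cfl1, -0.20 to 0.0011 for Cfl2 and -0.053 to 0.039 for Ssh1. For inhibitor against vehicle in WT they ran from -0.088 to 0.22 for Rhoa, -0.62 to 1.72 for Rhoc, -0.21 to 0.23 for Rock1, -0.082 to 0.0400 for Rock2, -0.065 to 0.093 for Limk1, -0.084 to 0.0702 for Limk2 and -0.078 to 0.066 for Cfl2. For inhibitor against vehicle in KO they ran from -0.53 to 0.062 for Rhob, -0.20 to 1.14 for Rock1, -0.0044 to 0.18 for Rock2, -0.13 to 0.029 for Cfl1 and -0.052 to 0.042 for Ssh1. For the interaction they ran from -0.46 to 0.14 for Rhob, -0.22 to 1.13 for Rock1 and -0.084 to 0.073 for Cfl1. The number of neighbour pairs in the order of levels that held in every library, 3, was 3 to 5 with 1 library left out, the 5 being without KO inhibitor line 3, and 7 with group medians.

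With a replicate block, the cell line for the inhibitor comparisons and the replicate number for KO against WT, edgeR called 0 genes in each of the 5 comparisons. In this paired fit Rhoc was at 1.65 and Rhoa at 0.60 for inhibitor against vehicle in KO, and no member changed sign. Of the members, Rhoc had the fewest counts in its lowest library, 57, then Rock1 with 327 and Ssh1 with 719.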
